A study of Drosophila melanogaster with 9 samples.

Results

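The 46 genes described here are male germline genes of the fruit fly Drosophila melanogaster, out of 16988 named genes in the count tables. They were chosen by symbol from genes known for their use in spermatocytes and sperm. The selection rule uses no measured value, but earlier results of these data were known when the list was made. RNA of whole larvae was sequenced from 3 genotypes with 3 libraries each, and every library came from a pool of 20 larvae grown at 28 °C. The control genotype was w1118, a white-eyed laboratory stock. hopTum larvae carry an activating allele of hop, which encodes the Janus kinase of the fly, and tuSz1 is a mutant stock that the series title links to a loss of self-tolerance. The labels name no other allele, no sex and no age of the larvae, and they do not say whether the stocks share a genetic background. The series title asks how gene expression and the IMD immune pathway differ between these genotypes, and the testis genes give a view of how much male germline RNA each pool held. Replicates are labelled as biological replicates.

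A larval testis grows through the third instar and fills with primary spermatocytes, the large cells that prepare for meiosis. These cells switch on a testis-specific transcription programme through the testis meiotic arrest complex (tMAC) and through testis-specific versions of TBP-associated factors (testis TAFs). Many messages for sperm proteins are made at this stage and stored, untranslated, until the spermatids elongate. Sperm protein messages in a larva are therefore a known property of spermatocytes and do not require mature sperm.

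Total counts ranged from 9552828 to 14517286 per library. Levels are given as counts-per-million of the TMM-scaled library size (CPM), where 3 counts, the floor used here, were worth 0.2 to 0.357 CPM depending on the library. Such floors cover counting error only. Testis genes were counted in all 9 libraries, whereas genes of the adult male tract were near 0. The 10 adult accessory gland genes looked up, which encode seminal fluid proteins of the mature male, summed to between 0 and 0.613 CPM, and none of them passed the filter on low counts. Of these, Acp26Ab, Acp36DE, Acp63F and Acp76A had at most 21.2% of their exon bases in exactly 1 annotated transcript. Their low counts are therefore not read as silence, while the others had 100%. The 6 salivary gland glue genes, which mark the later part of the last larval instar, summed to 47710, 61617 and 54191 CPM in w1118 replicates 1 to 3 and to 12617, 16535 and 12427 CPM in hopTum. In tuSz1 they summed to 56049 and 57462 CPM in replicates 1 and 2 and to 33.1 CPM in replicate 3. tuSz1 replicate 3 therefore stood apart in this stage marker.

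Of the 46 genes, 36 passed the low-count filter and were tested. The other 10 were aly, dj, Mst35Ba, Mst84Da, Mst84Dc, Mst87F, Prosalpha4T2, loopin-1, S-Lap7 and twe, and none of them had more than 4 counts in any library. Of these, dj, Mst35Ba, Mst84Dc, S-Lap7 and twe were listed at 0 in all 9 libraries. The deposited counts are per transcript, and annotated overlap went together with low counts. Among 32 genes with 1 listed transcript, 31 were tested, against 5 of 14 genes with 2 or more. In the 10 untested genes between 0% and 39.2% of exon bases lay in exactly 1 annotated transcript, whereas 28 of the 46 genes had 100% of their exon bases free of overlap. Mst84Da has 1 listed transcript, and 24.9% of its exon bases were free of overlap. These 10 genes are therefore described as listed at or near 0 and not as silent. The same limit touches the levels of vis, mia, S-Lap3, bol and Rb97D, the 5 tested genes with several transcripts, where counts came largely from a single transcript: the most counted transcript held between 81.4% and 100% of each gene's counts.

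**Figure D1:**
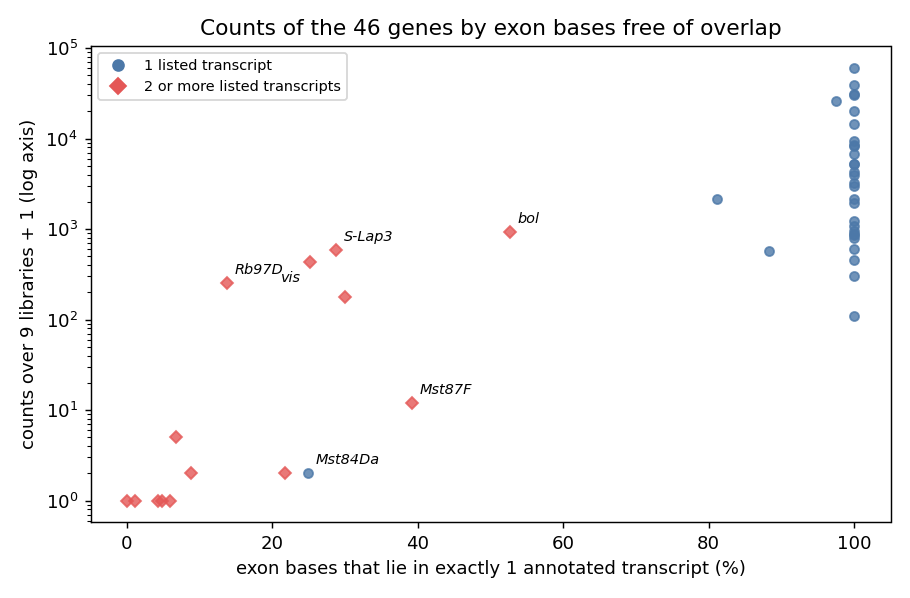
Each point is 1 of the 46 genes, with the share of its exon bases that lie in exactly 1 annotated transcript on the horizontal axis (percent) and its counts summed over 9 libraries, plus 1, on a log vertical axis. Circles are genes with 1 listed transcript and diamonds genes with 2 or more; the 10 genes with almost no counts all lie at or below 39.2%.

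Neighbouring genes showed the same contrast. dj and djl lie 242 bases apart on 3R, and dj, which encodes a protein of the sperm flagellum, had 0 counts over the 9 libraries while its relative djl had 3963. The protamine genes Mst35Ba and Mst35Bb lie 448 bases apart on 2L and had 0 and 4284 counts. The Mst84D cluster on 3R runs Mst84Dd, Mst84Dc, Mst84Db, Mst84Da, with gaps of 480, 486 and 222 bases, and its members had 5245, 0, 8379 and 1 counts in that order. Of their exon bases, 4.79% were free of overlap in dj, 5.86% in Mst35Ba, 1.1% in Mst84Dc and 24.9% in Mst84Da. The remaining genes djl, Mst35Bb, Mst84Db and Mst84Dd each had 100%. These sets also hold close copies, so counts could be split between copies or lost, which was not tested. Levels in these sets are uncertain for both reasons.

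Levels differed widely among the genes. Over all 9 libraries, 7 genes averaged at least 100 CPM, 15 lay between 10 and 100 CPM, 13 between 1 and 10 CPM, and 11 below 1 CPM. The 5 most abundant, S-Lap1, S-Lap4, betaTub85D, S-Lap8 and S-Lap2, held 63.6% of the summed CPM of the 46 genes. Per kilobase of exon, which allows genes to be compared, the mean levels in CPM per kb were led by S-Lap1 at 275, Mst84Db at 189, S-Lap4 at 178 and betaTub85D at 162. They were followed by Mst98Ca at 145, S-Lap8 at 141, ocn at 139, Mst77F at 128, Mst84Dd at 122 and S-Lap2 at 120. The leading genes thus encode sperm mitochondrial, tail, chromatin and microtubule proteins. The transcription regulators were far lower on the same scale, with rye at 32.4, topi at 12.1, sa at 11.8, can at 2.92 and comr at 2.04 CPM per kb. The Y-linked genes were lowest among the tested genes, down to 0.194 CPM per kb for kl-3.

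**Figure D2:**
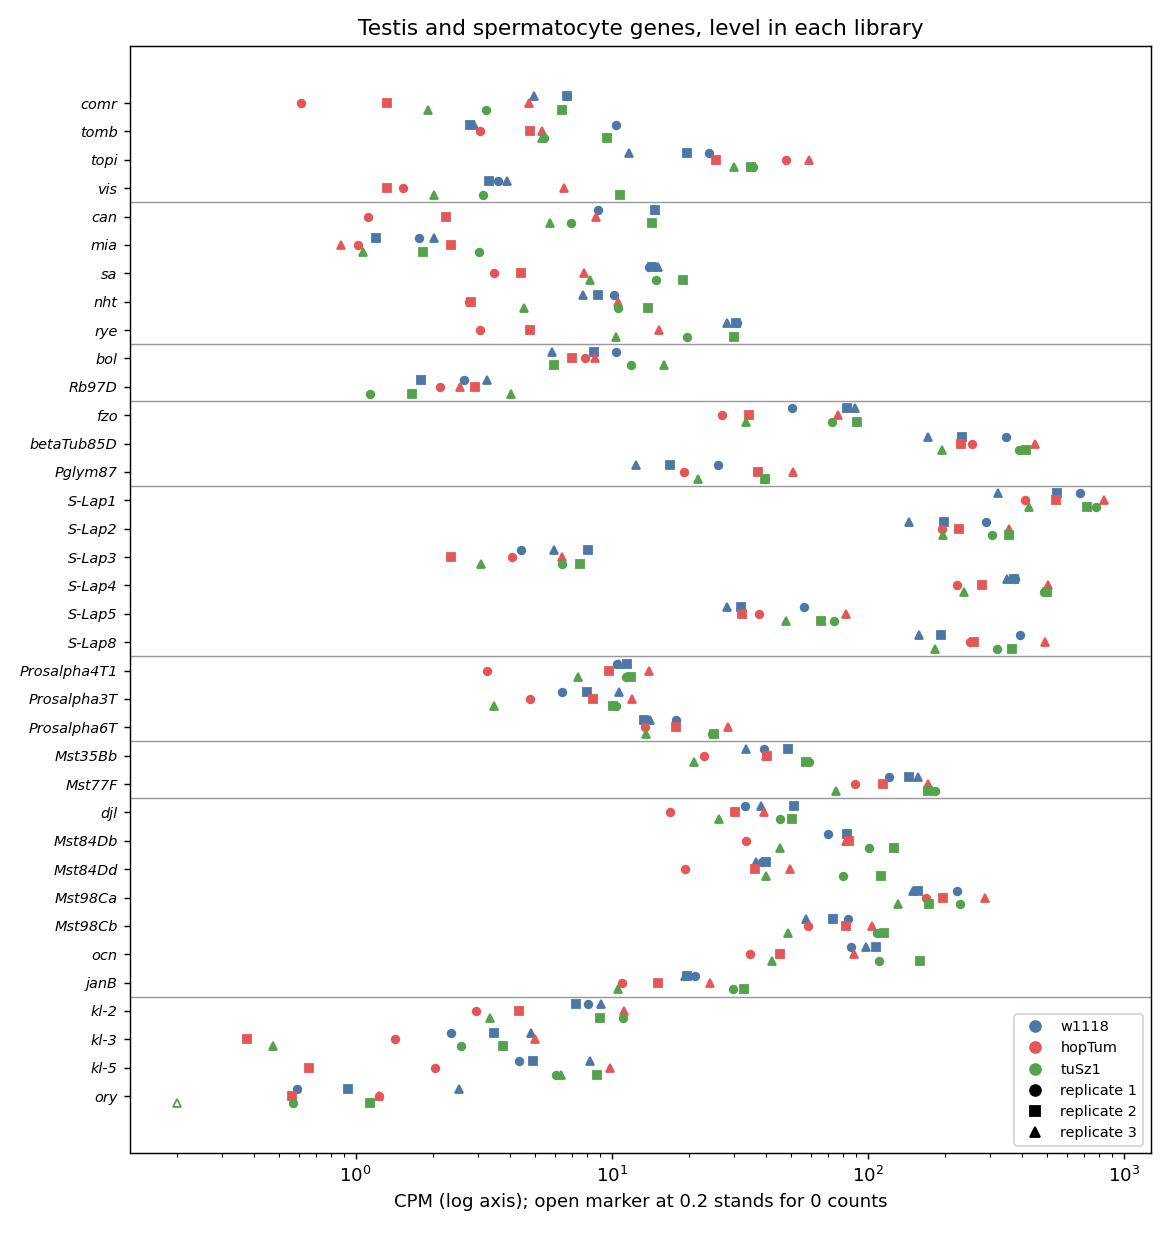
CPM on a log axis for each of the 36 tested genes in each of the 9 libraries, in the order of their roles; colour gives the genotype and marker shape the replicate. Most genes overlap between genotypes, while sa and rye show hopTum markers to the left of every w1118 marker.

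Summed over the 46 genes, testis RNA was at 3102, 2572 and 2114 CPM in w1118 replicates 1 to 3, at 1979, 2395 and 3953 CPM in hopTum, and at 3607, 3776 and 1907 CPM in tuSz1. The means were 2596 ± 495, 2776 ± 1041 and 3097 ± 1034 CPM (SD, n = 3 each). The genotypes overlapped throughout, and the spread inside hopTum and tuSz1 was larger than any difference between genotype means. hopTum replicate 3 held the most testis RNA of all 9 libraries and tuSz1 replicate 3 the least. Without these libraries the means were 2187 CPM in hopTum and 3691 CPM in tuSz1, so the CPM order of hopTum and w1118 depended on hopTum replicate 3. That order also turned without w1118 replicate 3, which left a w1118 mean of 2837 CPM. All genotype ranks depended on the scaling factors as well. As a share of unscaled counts, w1118 had the highest mean (0.34%), hopTum came next (0.292%) and tuSz1 was lowest (0.248%). This reverses the order of the CPM means. Without the scaling factors, the same genes took 0.387%, 0.352% and 0.281% of all counts in w1118, 0.196%, 0.209% and 0.471% in hopTum, and 0.315%, 0.318% and 0.11% in tuSz1.

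These swings were shared by most of the genes. In 33 of the 36 tested genes tuSz1 replicate 3 lay below both other tuSz1 libraries, which was so for 37.1% of all tested genes. In 32 of the 36, hopTum replicate 3 lay above both other hopTum libraries, which was so for 36.1% of all tested genes. The labels do not say whether the larvae were sexed, so the share of males per pool is not known. In these bulk samples fewer spermatocytes and less RNA per spermatocyte cannot be told apart. roX1 and roX2, noncoding RNAs of the male dosage compensation complex, summed to 9.56, 10.7 and 5.79 CPM in w1118, 1.74, 2.17 and 1.93 CPM in hopTum, and 10.1, 5.07 and 3.46 CPM in tuSz1. Replicate 3 had the lowest roX level and the lowest testis sum within w1118 and within tuSz1, whereas hopTum replicate 3 had the highest testis sum of all libraries beside a roX level close to those of the other hopTum libraries. roX1 was called lower in hopTum than in w1118 (log2 fold change -2.57, adjusted p = 0.0137, edgeR quasi-likelihood test), with 12% of its exon bases free of overlap. That call was lost without w1118 replicate 2 or hopTum replicate 1, with log2 fold changes of -2.87 to -2.29 and adjusted p-values of 0.0198 to 0.061 in edgeR when 1 library was left out. What part the share of males or the larval stage has in the testis values was not tested.

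**Figure D3:**
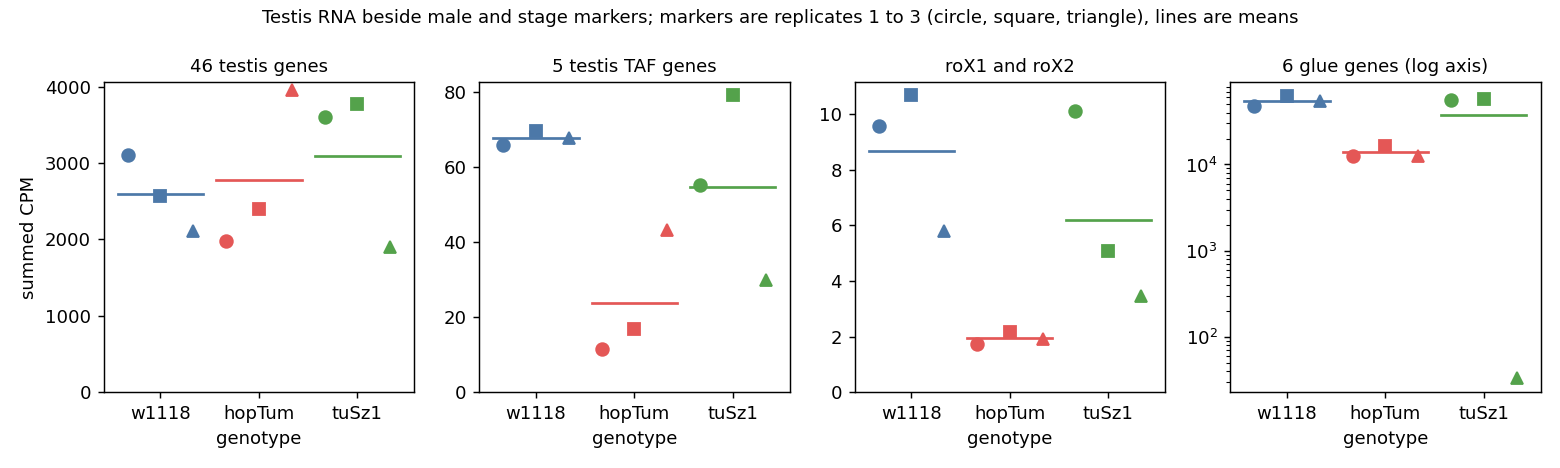
Summed CPM of the 46 testis genes, of the 5 testis TAF genes, of roX1 and roX2, and of the 6 glue genes (log axis) in each library; circles, squares and triangles are replicates 1 to 3 and lines are genotype means. The testis sums overlap between genotypes, while the TAF sums of all 3 hopTum libraries lie below those of w1118.

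Across all genes, the hopTum against w1118 comparison called 11.5% of 9106 tested genes higher and 6.65% lower at an adjusted p under 0.05 (edgeR quasi-likelihood test, Benjamini-Hochberg adjustment over all tested genes). Of the 36 tested testis genes, 1 was called higher (topi) and 2 lower (sa and rye). That share of 8.33% lies below the share of genes called in the whole table and is by itself no result about the testis genes. The median log2 fold change of the testis genes was -0.23, against -0.05 over all tested genes, with 25 of 36 values below 0 against 51.9% of all tested genes. It was -0.06 without hopTum replicate 1, -0.13 without hopTum replicate 2 and -0.47 without hopTum replicate 3. For tuSz1 against w1118 the whole table had 9.98% higher and 6.33% lower calls, and no testis gene was called (lowest adjusted p 0.101, with 2 genes at an unadjusted p under 0.05 and 0 calls by the DESeq2 Wald test). The median was 0.17, against 0.08 over all tested genes. Without tuSz1 replicates 1, 2 and 3 in turn it was 0.06, -0.01 and 0.45, and it was 0.09 without w1118 replicate 3. For tuSz1 against hopTum the whole table had 5.52% higher and 4.14% lower calls. No testis gene was called there (lowest adjusted p 0.0538, for sa, with 3 genes at an unadjusted p under 0.05), while the DESeq2 Wald test called sa higher. The median was 0.38, against 0.03 over all tested genes. It was 0.13, 0.21 and 0.61 without hopTum replicates 1, 2 and 3 in turn, and 0.17, 0.14 and 0.63 without those of tuSz1. The comparisons share libraries, so these medians are not independent of each other.

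**Figure D4:**
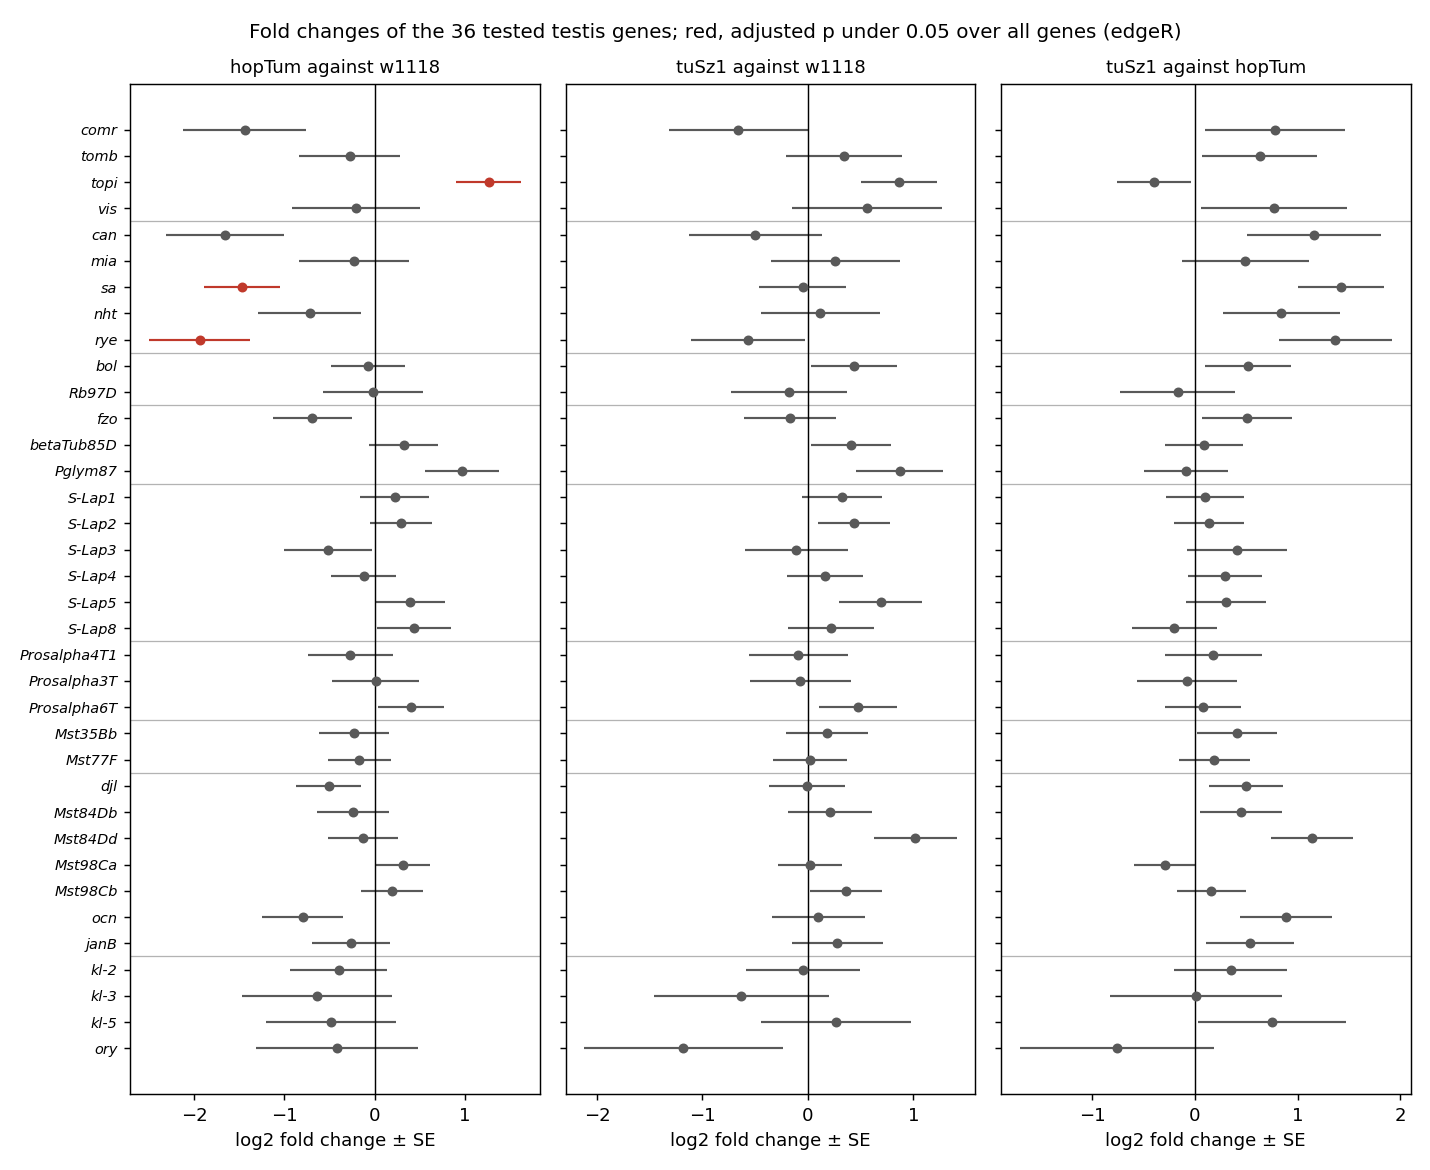
Log2 fold change with its standard error for the 36 tested genes in the comparisons of hopTum with w1118, tuSz1 with w1118 and tuSz1 with hopTum, grouped by role. Red marks genes with an adjusted p under 0.05 over all genes, which are topi, sa and rye in the first panel.

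Both genes called lower in hopTum encode testis TAFs. These proteins are paralogs of general TFIID subunits, and spermatocytes that lack one arrest before meiosis. sa, the TAF8 relative (3L, 21405425 to 21406738, minus strand), was at 14, 14.4 and 15.1 CPM in w1118 replicates 1 to 3, at 3.47, 4.43 and 7.81 CPM in hopTum, and at 14.9, 19 and 8.22 CPM in tuSz1. All hopTum libraries lay below all others, and the w1118 libraries were nearly equal. The log2 fold change of hopTum against w1118 was -1.47 (edgeR adjusted p = 0.032, SE 0.42), so sa fell. Between tuSz1 and hopTum the log2 fold change of sa was 1.42 (edgeR adjusted p = 0.0538, SE 0.42), which did not pass, and between tuSz1 and w1118 it was -0.05 (edgeR adjusted p = 0.959, SE 0.41).

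rye, the TAF12 relative (2L, 4700835 to 4701485, minus strand), was at 30.8, 30.5 and 28.1 CPM in w1118, at 3.06, 4.8 and 15.3 CPM in hopTum, and at 19.6, 30 and 10.4 CPM in tuSz1. Its hopTum libraries all lay below those of w1118, with replicate 3 far above the other hopTum libraries, and they overlapped with tuSz1. rye fell in hopTum against w1118, with a log2 fold change of -1.94 (edgeR adjusted p = 0.0328, SE 0.56). The tuSz1 values gave log2 fold changes of -0.57 (SE 0.54) against w1118 and 1.37 (SE 0.55) against hopTum, neither of which passed.

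can, the TAF5 relative, had 8.82, 14.7 and 14.8 CPM in w1118, 1.12, 2.26 and 8.69 CPM in hopTum, and 6.94, 14.4 and 5.72 CPM in tuSz1. The hopTum and w1118 libraries of can did not overlap, but hopTum replicate 3 lay just under the lowest w1118 library. Its log2 fold change of -1.66 (edgeR adjusted p = 0.101, SE 0.65) did not pass, and the DESeq2 Wald test called it (-1.76, adjusted p = 0.0265). nht, the TAF4 relative, had 10.2, 8.8 and 7.74 CPM in w1118, 2.76, 2.82 and 10.6 CPM in hopTum, and 10.6, 13.8 and 4.53 CPM in tuSz1, with overlap between all genotypes. mia, the TAF6 relative, had 0.878 to 3.04 CPM over the 9 libraries and also overlapped. The 5 TAF genes summed to 65.7, 69.6 and 67.8 CPM in w1118, to 11.4, 16.7 and 43.3 CPM in hopTum, and to 55.1, 79.1 and 29.9 CPM in tuSz1. These sums averaged 67.7 ± 1.98 CPM in the w1118 libraries, 54.7 ± 24.6 in tuSz1 and 23.8 ± 17.1 in hopTum (SD, n = 3 each). Without replicates 1, 2 and 3 in turn, the hopTum mean was 30, 27.4 and 14.1 CPM and the tuSz1 mean 54.5, 42.5 and 67.1 CPM.

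All 5 TAF genes had a log2 fold change below 0 in hopTum against w1118, with a median of -1.47. Their signs held under each scaling tried, while mia turned positive without hopTum replicate 3. The calls of sa and rye depended on the libraries. Without hopTum replicate 3, which had the most testis RNA, the calls numbered 5 (can, comr, kl-5, rye and sa, all lower), with rye at -2.92 and sa at -1.88. Without w1118 replicate 1 or hopTum replicate 2 only topi was called. Without w1118 replicate 2, w1118 replicate 3 or hopTum replicate 1 no testis gene was called. In all of these fits sa stayed between -1.49 and -1.32 and rye between -1.99 and -1.66. Over the whole table fewer genes were called in each of them as well, fewest in those without a testis call. A loss of calls was therefore not particular to the testis genes. Without hopTum replicate 3 fewer genes were also called over the whole table, although the testis calls rose. Over the 16 alternatives the log2 fold change of sa ran from -1.88 to -1.32 (adjusted p 0.00261 to 0.1) and that of rye from -2.92 to -1.66 (adjusted p 0.00185 to 0.1).

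Summed, and for sa and rye singly, the TAF genes were also low in hopTum relative to sperm leucylaminopeptidase RNA of the same library, a ratio that does not depend on scaling. These ratios were chosen after the values were seen and carry no test. For every 100 CPM of sperm leucylaminopeptidase RNA, the TAF genes had 3.67, 5.16 and 6.74 CPM in w1118, 1.02, 1.24 and 1.9 CPM in hopTum, and 2.79, 3.93 and 2.73 CPM in tuSz1. All hopTum libraries were below all others, including replicate 3 with its high testis sum and tuSz1 replicate 3 with its low one. The ratio of sa to S-Lap1 was 0.0209, 0.0264 and 0.0472 in w1118, 0.00847, 0.00814 and 0.00934 in hopTum, and 0.0192, 0.0264 and 0.0194 in tuSz1. The hopTum libraries were close to each other in this ratio even though their sa levels differed. For rye the ratio to S-Lap1 was 0.0459, 0.056 and 0.0876 in w1118, 0.00748, 0.00883 and 0.0183 in hopTum, and 0.0252, 0.0418 and 0.0244 in tuSz1. Again no hopTum library reached the lowest value of another genotype. For can and nht the hopTum ratios also lay below those of w1118 but overlapped with tuSz1, and for mia they overlapped with both. For nht it was 0.0152 to 0.0241 in w1118 and 0.00519 to 0.0127 in hopTum, where replicate 3 lay above the lowest tuSz1 library at 0.0107. For mia it was 0.0022 to 0.00632 in w1118, 0.00105 to 0.00433 in hopTum and 0.00253 to 0.00391 in tuSz1.

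**Figure D5:**
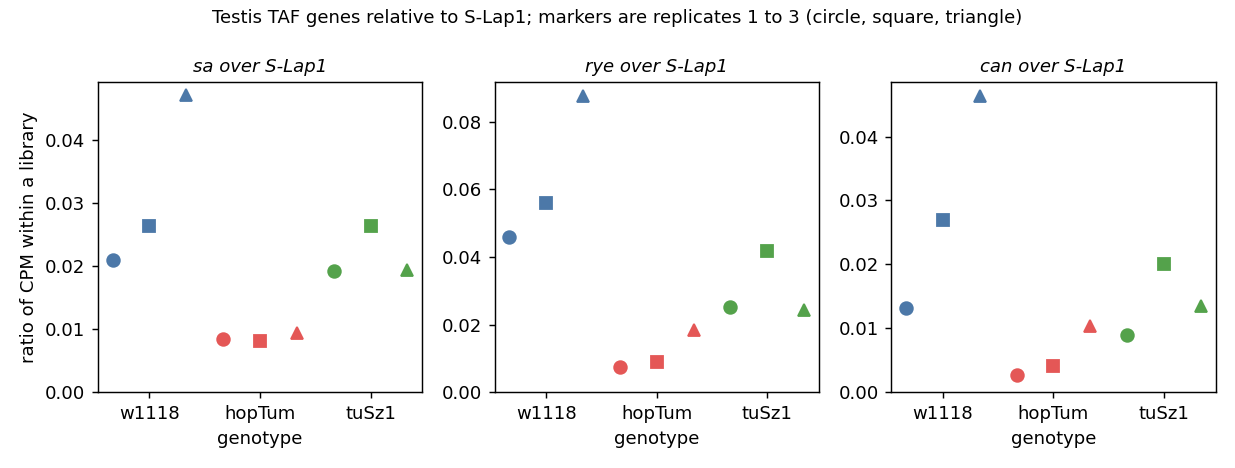
Ratio of the CPM of sa, rye and can to that of S-Lap1 within each library, by genotype; circles, squares and triangles are replicates 1 to 3. For sa and rye all hopTum libraries lie below all w1118 and tuSz1 libraries; for can, hopTum replicate 3 lies at 0.0104, above tuSz1 replicate 1 at 0.00892.

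Of the 4 tested tMAC genes, topi was called higher in hopTum and the others were not called. topi encodes a zinc finger DNA-binding subunit (3R, 9775121 to 9777943, plus strand) and was at 24, 19.6 and 11.7 CPM in w1118, at 48, 25.5 and 58.7 CPM in hopTum, and at 35.5, 35.1 and 29.9 CPM in tuSz1. All hopTum and all tuSz1 libraries lay above all w1118 libraries. topi rose in hopTum against w1118 with a log2 fold change of 1.26 (edgeR adjusted p = 0.0328, SE 0.36). In tuSz1 against w1118 its log2 fold change was 0.86 (edgeR adjusted p = 0.127, SE 0.36), which did not pass. The rise was at its smallest, 0.95 with an adjusted p of 0.167 in edgeR, when libraries were scaled to total counts. Over the 16 alternatives its log2 fold change stayed between 0.95 and 1.53 (adjusted p 0.0129 to 0.167), and 7 of them called it. The call was lost without w1118 replicate 2 or 3 and without hopTum replicate 1 or 3.

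comr, which encodes another tMAC subunit needed for spermatocyte transcription, was at 6.69, 6.67 and 4.99 CPM in w1118, at 0.613, 1.32 and 4.74 CPM in hopTum, and at 3.23, 6.38 and 1.91 CPM in tuSz1. Its hopTum libraries lay below those of w1118, with replicate 3 just under the lowest of them. The log2 fold change of -1.44 (edgeR adjusted p = 0.162, SE 0.68) did not pass. The ratio of topi to comr, chosen after the values were seen, was 3.59, 2.94 and 2.35 in w1118, 78.3, 19.4 and 12.4 in hopTum, and 11, 5.49 and 15.7 in tuSz1. w1118 did not overlap with either mutant. In hopTum this follows from the levels of topi and comr, which were already apart from w1118 in opposite directions. The ratios rest on few comr counts, which were 6, 14 and 54 in hopTum and 34, 73 and 16 in tuSz1. tomb, a tMAC subunit with a DNA-binding cysteine-rich domain, ranged from 2.8 to 10.4 CPM in w1118, from 3.06 to 5.36 CPM in hopTum and from 5.36 to 9.62 CPM in tuSz1. vis, one of a pair of homeodomain proteins that join the complex, ranged from 3.33 to 3.91 CPM in w1118, from 1.32 to 6.5 CPM in hopTum and from 2.03 to 10.8 CPM in tuSz1. Neither tomb nor vis was called, and aly, which encodes the subunit that gave the always-early class its name, had 1 count in all 9 libraries together.

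The meiotic genes were low and partly uncounted. bol encodes an RNA-binding protein of the DAZ family that controls translation of twe, the meiotic Cdc25 phosphatase. bol was at 10.4, 8.53 and 5.86 CPM in w1118, 7.86, 6.97 and 8.6 CPM in hopTum, and 11.9, 5.95 and 16 CPM in tuSz1. Its highest tuSz1 value was in replicate 3, where most testis genes were lowest. Rb97D, an RNA-binding protein that associates with a Y-chromosome loop in spermatocytes, showed the same order in tuSz1, with 1.14, 1.66 and 4.05 CPM. The log2 fold changes of both genes lay between -0.18 and 0.52 in the 3 comparisons and did not pass. bol had 52.7% and Rb97D 13.8% of exon bases free of overlap, so these counts cover only part of their transcripts, and twe had none free and no counts.

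betaTub85D and fzo serve the differentiation of spermatids, and Pglym87 was grouped with them here. betaTub85D encodes the testis beta-tubulin of meiotic spindles and axonemes and was at 347, 234 and 172 CPM in w1118, 255, 231 and 450 CPM in hopTum, and 391, 413 and 194 CPM in tuSz1. It was highest in hopTum replicate 3, like the testis sum, and the genotypes overlapped. Its log2 fold changes of 0.32, 0.41 and 0.09 (hopTum against w1118, tuSz1 against w1118, tuSz1 against hopTum) did not pass. fzo encodes the mitofusin that fuses mitochondria into the nebenkern of the early spermatid. It ranged from 50.4 to 89.2 CPM in w1118, from 26.9 to 76.8 CPM in hopTum and from 33.4 to 90.9 CPM in tuSz1, with overlap throughout. Pglym87, a testis relative of phosphoglycerate mutase, was at 26, 16.9 and 12.4 CPM in w1118, 19.2, 37.3 and 50.9 CPM in hopTum, and 39.6, 39.7 and 21.8 CPM in tuSz1. Its log2 fold change of 0.96 (edgeR adjusted p = 0.132, SE 0.41) in hopTum against w1118 did not pass.

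The sperm leucylaminopeptidases carried the bulk of the testis RNA. These peptidase relatives are major sperm proteins that fill the mitochondrial derivatives of the sperm tail, and 6 of the 8 listed genes were tested. S-Lap1 was at 671, 546 and 321 CPM in w1118, 410, 544 and 837 CPM in hopTum, and 778, 718 and 425 CPM in tuSz1. S-Lap4 was at 377, 372 and 348 CPM in w1118, 223, 279 and 505 CPM in hopTum, and 489, 501 and 238 CPM in tuSz1. Both overlapped between genotypes, and in both hopTum replicate 3 was the highest hopTum library and tuSz1 replicate 3 the lowest tuSz1 library. S-Lap2, which starts 413 bases downstream of S-Lap1 on 3L, ran from 145 to 355 CPM over the 9 libraries and S-Lap8 from 159 to 491 CPM. S-Lap5 ran from 28.3 to 82.4 CPM and S-Lap3 from 2.35 to 8.07 CPM. The log2 fold changes of the 6 genes lay between -0.52 and 0.43 in hopTum against w1118, between -0.11 and 0.69 in tuSz1 against w1118, and between -0.20 and 0.41 in tuSz1 against hopTum. None of them passed, and the signs of S-Lap1 and S-Lap2 turned negative in hopTum against w1118 under total count scaling.

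The neighbours S-Lap1 and S-Lap2 kept a narrow ratio, and the other pairs of the family read here varied more. Not every pair was read, S-Lap2 with S-Lap8 among those left out. A narrow ratio is therefore not shown to be particular to these neighbours. S-Lap1 stood at 2.02 to 2.74 times S-Lap2 in the 9 libraries, while the level of S-Lap1 varied 2.61-fold. The ratio of S-Lap4 to S-Lap1 ran from 0.513 to 1.08, that of S-Lap8 to S-Lap4 from 0.458 to 1.12, that of S-Lap5 to S-Lap4 from 0.0814 to 0.202, and that of S-Lap3 to S-Lap1 from 0.00433 to 0.0185. These pairs thus varied 2.11-fold to 4.28-fold over the 9 libraries. The family as a whole made up 47.6% to 57.7% of the summed CPM of the 46 genes. w1118 replicate 3, at 47.6%, had the lowest share and the lowest S-Lap1 level. The members resemble each other in sequence, so reads could be assigned to the wrong copy or lost, and a level of one S-Lap gene is uncertain to that extent.

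The testis proteasome genes encode alternative alpha subunits that replace the general ones in the male germline. Prosalpha6T was at 17.9, 13.4 and 14.1 CPM in w1118, 13.5, 17.8 and 28.5 CPM in hopTum, and 24.7, 25.1 and 13.6 CPM in tuSz1. Prosalpha4T1 ranged from 3.27 to 14 CPM and Prosalpha3T from 3.46 to 12 CPM over the 9 libraries, and Prosalpha4T2 had at most 2 counts in a library. Genotypes overlapped for each of the 3 tested genes, and their log2 fold changes lay between -0.27 and 0.48. Of 10 further testis proteasome genes 7 were tested. Over all tested genes 6.65% were called lower in hopTum against w1118. Prosbeta4R2, 1 of the 7, was called lower there. It had 34, 43 and 25 counts in w1118, 0, 0 and 4 in hopTum, and 17, 44 and 2 in tuSz1. Prosbeta4R2 was lower in hopTum than in w1118 with an adjusted p of 0.028 (edgeR), and its only counted hopTum library was replicate 3. The call was lost without any 1 of the w1118 libraries and without hopTum replicate 1 or 2 (adjusted p 0.0144 to 0.0858 with 1 library left out, edgeR).

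Sperm chromatin genes overlapped between genotypes and were low in tuSz1 replicate 3. Mst77F, a linker-histone-like protein of the sperm nucleus, was at 121, 145 and 157 CPM in w1118, 89.1, 115 and 172 CPM in hopTum, and 183, 172 and 75.1 CPM in tuSz1. Mst35Bb, one of the protamine genes, was at 39.3, 48.7 and 33.4 CPM in w1118, 22.9, 40.4 and 40 CPM in hopTum, and 58.9, 57.3 and 21 CPM in tuSz1. In both genes tuSz1 replicate 3 was the lowest of the 9 libraries. Their log2 fold changes lay between -0.23 and 0.41 and did not pass.

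Sperm tail genes gave no call, and Mst84Dd came nearest to one. Mst84Dd and Mst84Db encode cysteine-rich proteins of the sperm tail whose messages are stored in spermatocytes. Mst84Dd was at 38.6, 40 and 36.6 CPM in w1118, 19.4, 36.4 and 49.7 CPM in hopTum, and 79.9, 113 and 39.9 CPM in tuSz1. The tuSz1 libraries 1 and 2 lay above every other library, and tuSz1 replicate 3 lay within the w1118 range. The log2 fold change of Mst84Dd was 1.02 (edgeR adjusted p = 0.101, SE 0.39) in tuSz1 against w1118 and 1.14 (edgeR adjusted p = 0.0968, SE 0.40) in tuSz1 against hopTum. Without tuSz1 replicate 3 both passed, with 1.34 (adjusted p = 0.0291, edgeR) and 1.46 (adjusted p = 0.0282, edgeR). Without tuSz1 replicate 2 they were 0.64 (adjusted p = 0.355, edgeR) and 0.77 (adjusted p = 0.349, edgeR). Under total count scaling they were 0.31 (adjusted p = 0.629, edgeR) and 0.77 (adjusted p = 0.304, edgeR).

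Mst84Db, in the same cluster, was at 69.8, 83.1 and 82.7 CPM in w1118, 33.5, 84.1 and 82.2 CPM in hopTum, and 101, 126 and 45.2 CPM in tuSz1. The ratio of Mst84Dd to Mst84Db, chosen after the values were seen, was 0.553, 0.482 and 0.443 in w1118, 0.579, 0.433 and 0.605 in hopTum, and 0.788, 0.9 and 0.884 in tuSz1. All tuSz1 libraries lay above all others in this ratio, replicate 3 included. Whether the stocks differ in sequence or copy number at this cluster was not tested.

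The other tail and sperm genes overlapped between genotypes, with no call. Mst98Ca and Mst98Cb, which lie 141 bases apart on 3R and encode proteins of the outer dense fibres of the tail, ran from 131 to 287 CPM and from 48.7 to 116 CPM over the 9 libraries. Their ratio lay between 1.51 and 2.91, and neither changed by the test. djl ran from 16.9 to 51.7 CPM. ocn and janB are neighbouring genes, 253 bases apart, of a family with testis-limited members. ocn was at 85.6, 108 and 98.3 CPM in w1118, 34.6, 45.6 and 88 CPM in hopTum, and 111, 160 and 42.1 CPM in tuSz1, with a log2 fold change of -0.80 (edgeR adjusted p = 0.241, SE 0.45) in hopTum against w1118. janB ran from 10.6 to 32.7 CPM. The ratio of ocn to janB, chosen after the values were seen, was 4.06 to 5.51 in w1118, 3.02 to 3.64 in hopTum and 3.73 to 4.89 in tuSz1, so hopTum lay below both other genotypes. Of the exon bases of janB, 81.2% were free of overlap, and the other 18.8% were shared with janA on the same strand.

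Of the Y-linked genes, which males alone carry, 4 are among the 46. kl-2, kl-3 and kl-5 encode axonemal dynein heavy chains and have introns of extreme length, and ory encodes a coiled-coil protein needed for male fertility. kl-2 was at 8.09, 7.27 and 9.05 CPM in w1118, 2.96, 4.33 and 11.2 CPM in hopTum, and 11.1, 9.01 and 3.34 CPM in tuSz1. kl-5 was at 4.34, 4.93 and 8.25 CPM in w1118, 2.04, 0.659 and 9.83 CPM in hopTum, and 6.08, 8.74 and 6.32 CPM in tuSz1. hopTum replicates 1 and 2 were below every w1118 library for kl-2 and kl-5, and hopTum replicate 3 was above every one. kl-3 ran from 0.377 to 5 CPM, and ory from 0 to 2.53 CPM, with no counts in tuSz1 replicate 3. None of the 4 genes passed in a comparison (lowest adjusted p 0.451). They summed to 15.4, 16.6 and 24.7 CPM in w1118, to 7.66, 5.93 and 27.2 CPM in hopTum, and to 20.3, 22.6 and 10.1 CPM in tuSz1. These sums averaged 18.9 ± 5.06 CPM in the w1118 libraries, 17.7 ± 6.66 in tuSz1 and 13.6 ± 11.8 in hopTum (SD, n = 3 each). Without replicates 1, 2 and 3 in turn, the hopTum mean was 16.6, 17.4 and 6.8 CPM and the w1118 mean 20.6, 20 and 16 CPM.

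Of 7 further Y-linked genes 5 were tested, and each comparison called 1 of them lower. Over all tested genes 6.65% were called lower in hopTum against w1118, 6.33% in tuSz1 against w1118 and 4.14% in tuSz1 against hopTum. Pp1-Y1, a testis protein phosphatase gene, had 24, 58 and 35 counts in w1118, 10, 10 and 14 in hopTum, and 0 in each of the 3 tuSz1 libraries. It was called lower in tuSz1 than in w1118 (adjusted p = 0.00128, edgeR) and than in hopTum (adjusted p = 0.0077, edgeR). Against a floor of 3 counts per library it was at least 9.03-fold higher in w1118 and at least 3.53-fold higher in hopTum than in tuSz1. The related gene Pp1-Y2 was counted in every library, at 3.23, 3.15 and 1.55 CPM in tuSz1. It was lower in hopTum, at 0.613, 1.13 and 1.67 CPM, than in w1118, at 2.79, 4.6 and 4.56 CPM (log2 fold change -1.79, adjusted p = 0.0405, edgeR). The Pp1-Y1 calls held with each library left out (adjusted p up to 0.0241, edgeR). That of Pp1-Y2 was lost without w1118 replicate 2 or 3 and without hopTum replicate 1 or 2 (log2 fold change -2.18 to -1.57, adjusted p 0.0417 to 0.129, edgeR). Among the 4 Y-linked members and the 5 other tested Y-linked genes, Pp1-Y1 was the only gene without a count in all libraries of a genotype.

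Other genes of the spermatocyte programme were read beside the 46. Of 10 further spermatocyte transcription regulators 7 were tested, and 1 was called, kmg, in hopTum against w1118. Over all tested genes 11.5% were called higher and 6.65% lower there, so 1 call is by itself no result about these regulators. kmg, which keeps spermatocytes from using promoters of other tissues, was at 20.4, 15.8 and 15.6 CPM in w1118, 5.41, 8.57 and 8.52 CPM in hopTum, and 16.2, 24.7 and 12.6 CPM in tuSz1. Its hopTum libraries lay below all others, and it fell in hopTum against w1118 (log2 fold change -1.20, edgeR adjusted p = 0.0403, SE 0.36). Leaving out any 1 of these 6 libraries lost the call, with log2 fold changes of -1.30 to -1.06 and adjusted p-values of 0.0599 to 0.124 in edgeR. Of the 7 regulators 6 had a log2 fold change below 0 in hopTum, with a median of -1.20, among them tbrd-1 (-1.27, adjusted p = 0.0743, edgeR) and tbrd-2 (-1.55, adjusted p = 0.0637, edgeR), which encode bromodomain partners of the testis TAFs. Neither of these passed. mip40, a subunit shared with complexes outside the testis, had a log2 fold change of 0.22.

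Of 18 genes known for transcription after meiosis 15 were tested, with no call in hopTum against w1118 (lowest adjusted p 0.181, 0 at an unadjusted p under 0.05) and 1 call in each tuSz1 comparison. Over all tested genes 9.98% were called higher in tuSz1 against w1118 and 5.52% in tuSz1 against hopTum. Against these shares, 6.67% of this list in each is by itself no result about it. r-cup was at 32.6, 21.3 and 13.6 CPM in w1118, 25.3, 14.5 and 31.1 CPM in hopTum, and 62.7, 65.1 and 48.1 CPM in tuSz1. All tuSz1 libraries lay above all others, including replicate 3. r-cup was higher in tuSz1 than in w1118 by a log2 fold change of 1.38 (edgeR adjusted p = 0.0258, SE 0.37) and than in hopTum by 1.31 (edgeR adjusted p = 0.0467, SE 0.37). Against w1118 this call was lost without w1118 replicate 2 or 3 and without tuSz1 replicate 1 or 2 (1.12 to 1.75, adjusted p 0.0154 to 0.0942, edgeR). Against hopTum it was called with 1 of 6 libraries left out, tuSz1 replicate 3 (1.06 to 1.49, adjusted p 0.0499 to 0.128, edgeR). Scaling to total counts gave 0.64 and 0.88, with no call in either comparison. The other 14 had log2 fold changes from -0.55 to 0.50 in tuSz1 against w1118. Of 5 other axonemal dynein heavy chain genes 3 were tested, and they had log2 fold changes from -0.67 to 0.57 in the 3 comparisons and no call.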

How the data were processed

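Whole-larva RNA of 9 libraries was analysed, and groups were taken from the titles. The deposited values are raw read counts per RefSeq transcript, 34111 entries per library. The submitters' processing notes name FastQC 0.11.8, HISAT2 2.1.0, featureCounts 1.6.3 and the build dm6; their settings, the strand setting included, are not given in the sources used here. Entries were matched to gene symbols through a RefSeq gene table of the same build (33766 with their version, 146 without, 199 unmatched holding 0.421% of counts), and counts were summed per symbol. Coordinates come from that table. Exon overlap was read from the Ensembl annotation of the same assembly.

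edgeR 4.0.16 in R 4.3.3 was run on all 9 libraries with TMM factors (0.578 to 1.37), its default low-count filter by genotype and the robust quasi-likelihood test. P-values were Benjamini-Hochberg adjusted over 9106 genes, with a threshold of 0.05. Standard errors are the absolute log2 fold change over the square root of the F statistic. Shares of calls over all genes are the background for the testis genes. The procedure was tested on simulated counts. Alternatives were other scalings (DESeq2 size factors, total counts, the 50 most counted genes left out), other filters (none, or 50 counts on average), the Wald test of DESeq2 1.42.0, 6-library fits, a replicate block, a minimum absolute log2 fold change of 1, single-transcript genes and leaving out each replicate.

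Called testis genes are named with all values, other members with at least 1 CPM by ranges or values, and of the other lists those called. The members and lists were chosen with earlier results of these data known. The symbols Mst35Ba, Mst35Bb and rye appear in the gene table as ProtA, ProtB and Taf12L. Figures were drawn in matplotlib 3.10.9, and tables were made in Python 3.11.15 with numpy 2.4.6 and pandas 2.3.3.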

Additional observations from a re-analysis of the deposited data

How the results depend on the processing

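The number of testis genes called in hopTum against w1118 was 2 to 4 under the alternatives other than the replicate block and leaving out libraries, against 3 as reported, and 0 to 5 with 1 library left out. In tuSz1 against w1118 it was 0 throughout, except 0 to 1 with 1 library left out, where the single call was Mst84Dd without tuSz1 replicate 3. In tuSz1 against hopTum it was 0 as reported and 1 (sa, higher) with DESeq2 size factors, with a mean count of at least 50 and with the DESeq2 Wald test; with 1 library left out it was 0 to 4. The 4 calls came without hopTum replicate 3 (can, kl-5, rye and sa), and without tuSz1 replicate 3 there were 2 (Mst84Dd and sa). Same-numbered libraries did not deviate together (r between -0.351 and 0.165 over 9 pairs, mean -0.0851). Differently numbered libraries had r between -0.279 and 0.334. The labels do not say whether the numbers mark shared batches, and correlations over so few pools cannot decide it. With the replicate block hopTum against w1118 gave 0 calls, with adjusted p-values of 0.0603 for rye, 0.0704 for sa and 0.0688 for topi in edgeR. Over the whole table fewer genes were called in this comparison too, with the replicate block and with each library left out. The cause of these shifts was not tested.

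Among 1698 values of single genes under an alternative, 155 had another sign than the reported value, the largest of these at 0.77 in size as reported, and no called value changed sign; 37 of them came from total count scaling. Over all genes that scaling shifted the median log2 value to -0.41, -0.7 and -0.39 (hopTum against w1118, tuSz1 against w1118, tuSz1 against hopTum) from -0.05, 0.08 and 0.03, and the median of the testis genes to -0.59, -0.53 and -0.03. The topi call was lost under total count scaling, without the 50 most counted genes, with no low-count filter and with single-transcript genes. Within hopTum and tuSz1 the testis sum varied 2-fold and 1.98-fold between pools, and this spread limits which differences pass.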

Other observations

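Of 12 germ line genes used in both sexes 4 were tested. Of the rest, vas, nos, bgcn, zpg, ovo and otu were listed at 0 in all libraries, and aub and AGO3 had 14 and 4 counts over all 9. At most 13.2% of the exon bases of any of these untested genes were free of overlap, so they are not described as silent. krimp, which encodes a piRNA pathway protein of the nuage, was at 6.4, 7.87 and 8.18 CPM in w1118, 19.2, 12.3 and 18.1 CPM in hopTum, and 5.7, 7.35 and 6.67 CPM in tuSz1. Its hopTum libraries lay above all others. krimp rose in hopTum against w1118 (log2 fold change 1.14, edgeR adjusted p = 0.0355, SE 0.34) and was lower in tuSz1 than in hopTum (-1.33, edgeR adjusted p = 0.0302, SE 0.34). Over all tested genes 11.5% were called higher in the first of these comparisons and 4.14% lower in the second. With 1 library left out each of these comparisons was called in 1 of 6 fits, with log2 fold changes of 0.95 to 1.32 and -1.50 to -1.21 (adjusted p 0.0271 to 0.142 and 0.023 to 0.117, edgeR). bam, the switch from dividing to differentiating germ cells, ran from 2.14 to 5.42 CPM over the 9 libraries and overlapped between genotypes. The other tested genes of this list went against krimp in hopTum against w1118. Their log2 fold changes were -0.84 for spn-E, -1.15 for tej and -0.64 for bam, and none passed (adjusted p 0.133, 0.135 and 0.349, edgeR). All hopTum libraries lay below all w1118 libraries for spn-E and tej, and the median of the list was -0.74. The tested gonad soma genes eya, so, upd1 and hh gave no call (lowest adjusted p 0.0636, for hh in tuSz1 against w1118, edgeR), and these genes are also used in other larval tissues.

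Of 17 broadly used relatives of the testis genes 11 were tested, and 1 of them, betaTub97EF, was called higher in each mutant against w1118, where 11.5% (hopTum) and 9.98% (tuSz1) of all tested genes were called higher. betaTub97EF, a beta-tubulin gene outside the germ line, was at 1.69, 0.4 and 0.941 CPM in w1118, 12.9, 18.9 and 9.66 CPM in hopTum, and 4.09, 4.37 and 7.86 CPM in tuSz1. All mutant libraries lay above all w1118 libraries. It rose in hopTum (log2 fold change 3.77, edgeR adjusted p = 0.000979, SE 0.57) and in tuSz1 (2.42, edgeR adjusted p = 0.0116, SE 0.55) against w1118, while its testis relative betaTub85D did not pass in either. The tuSz1 call was lost without w1118 replicate 3 (adjusted p = 0.052, edgeR), and 18% of the exon bases of betaTub97EF were free of overlap. Taf5 and Taf8, the general relatives of can and sa, had log2 fold changes of 0.50 and 0.59 in hopTum against w1118 and did not pass. The general relatives Taf6 and Prosalpha6 were listed at 0 in all libraries. They had 0.146% and 4.02% of exon bases free of overlap, so they are not described as silent.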
